A study of Sus scrofa with 15 samples.

Results

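Cyclic nucleotide phosphodiesterases were read on 3 probe sets, 1 each annotated as PDE4B, PDE6C and PDE9A, among 3255 probe sets tested and 1260 named genes in pig backfat. They were taken by their annotated gene symbol, and the genes had been chosen by their diet difference in these same arrays. Differences between diets are therefore given as a description, with no test. Backfat, the subcutaneous fat of the back, came from 15 castrated male Iberian pigs, a breed that lays down much fat. Of these, 8 received a feed enriched in oleic acid (high oleic) and 7 the standard feed (control), in rations matched for energy and protein. Treatment ran between 28 kg and about 110 kg of live weight, and the labels give the sampled fat as the inner layer but no age. Each animal gave 1 Affymetrix array and counts as 1 replicate, and precision is limited by how many arrays there are. All values are log2 signals as deposited, and a difference of 1 is a doubling of signal.

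Cyclic AMP and cyclic GMP are second messengers, and phosphodiesterases end their signal by hydrolysing them. In fat cells, catecholamines raise cyclic AMP through beta-adrenergic receptors, which activates protein kinase A and with it the breakdown of stored triglyceride, while natriuretic peptides act through cyclic GMP. PDE4B belongs to the family that hydrolyses cyclic AMP and is abundant in leukocytes. PDE9A is a high-affinity enzyme specific for cyclic GMP. PDE6C is the catalytic subunit of the cyclic GMP phosphodiesterase of cone photoreceptors.

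The identity of the PDE6C signal is open to a second reading in the annotation. In RefSeq, of which only the names from the Sscrofa11.1 table were used, the record to which this probe set is assigned has 5 transcripts and carries GPR120 and O3FAR1 as further names. Both are names of FFAR4, a cell surface receptor for long-chain fatty acids that is expressed in adipocytes. A table of Ensembl gene names lists FFAR4 and PDE6C as separate genes. Which of these transcripts the probes match was not tested, and all values below are those of the probe set annotated as PDE6C. The records of PDE4B and PDE9A carry no further name. None of the 16 photoreceptor markers sought was among the named genes, so the cone enzyme could not be set against them.

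Across the series, array medians lay between 6.39 and 6.67. The deposited probe sets were variable ones, as each had at least 3 arrays 1.5-fold or more from its own median. Of 14 adipocyte markers 4 were measured, namely LEP, PNPLA2, RBP4 and FASN, with mean log2 signals between 8.74 and 11.53. High-oleic animals were lighter at slaughter, at 109.2 ± 3.52 kg (SD, n = 8) against 117.2 ± 7.32 kg in control animals (SD, n = 7), a difference of -8.03 kg (two-sided exact permutation p = 0.00435 over 6435 splits). In limma with Benjamini-Hochberg adjustment, 0 of the 3255 probe sets passed an adjusted p of 0.05 for diet, which is 0% of those tested, and 128, or 3.93%, had an unadjusted p under 0.05. Tissue samples of this kind hold several cell types, and fewer cells of a type cannot be told apart from less RNA per cell.

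PDE4B, the cyclic AMP enzyme, was lower on the high-oleic diet, while the cyclic GMP enzyme PDE9A was higher. The probe set annotated as PDE6C, whose identity is open as described above, was also higher. For PDE4B the lowest, median and highest signals were 4.94, 5.97 and 6.51 in high-oleic animals, against 5.62, 6.36 and 7.37 in control animals. Control animals 5, 6 and 7, at 6.98, 7.09 and 7.37, stood above all 8 high-oleic animals, and high-oleic animals 2 and 7, at 4.94 and 5.15, stood below all 7 control animals. The other 10 animals overlapped, so the lower mean came from both ends of the distribution. The means were 5.81 ± 0.53 (SD, n = 8) in high-oleic and 6.50 ± 0.65 (SD, n = 7) in control animals. The difference of -0.70 (SE 0.30) corresponds to 0.617 times the control signal.

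For the PDE6C probe set the lowest, median and highest signals were 8.30, 9.07 and 10.25 in high-oleic animals, against 7.70, 8.33 and 8.94 in control animals. Of the high-oleic animals 5 of 8 lay above every control animal, and 7 of 8 lay above the control median. High-oleic animal 4, at 8.30, was the exception and also held the highest PDE4B signal of its diet. Control animals 1, 6 and 7 lay below every high-oleic animal. The means were 9.21 ± 0.60 (SD, n = 8) and 8.31 ± 0.48 (SD, n = 7), high oleic against control, with a difference of 0.90 (SE 0.29) or 1.86-fold.

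PDE9A had the narrowest spread of the 3. Its lowest, median and highest signals were 7.69, 8.18 and 8.86 in high-oleic animals, against 7.00, 7.60 and 7.91 in control animals. All 8 high-oleic animals lay above the control median, 5 of them above every control animal, and 5 of 7 control animals lay below every high-oleic animal. The means were 8.20 ± 0.42 (SD, n = 8) in high-oleic and 7.48 ± 0.38 (SD, n = 7) in control animals, a difference of 0.72 (SE 0.24) or 1.65-fold. The SD within diets was 0.40 for PDE9A, 0.55 for PDE6C and 0.59 for PDE4B, where the median tested probe set had 0.55. Only 7.43% of the tested probe sets varied less within diets than PDE9A. This share is not free of the selection, as only variable probe sets were deposited and PDE9A was chosen by its diet difference.

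**Figure D1:**
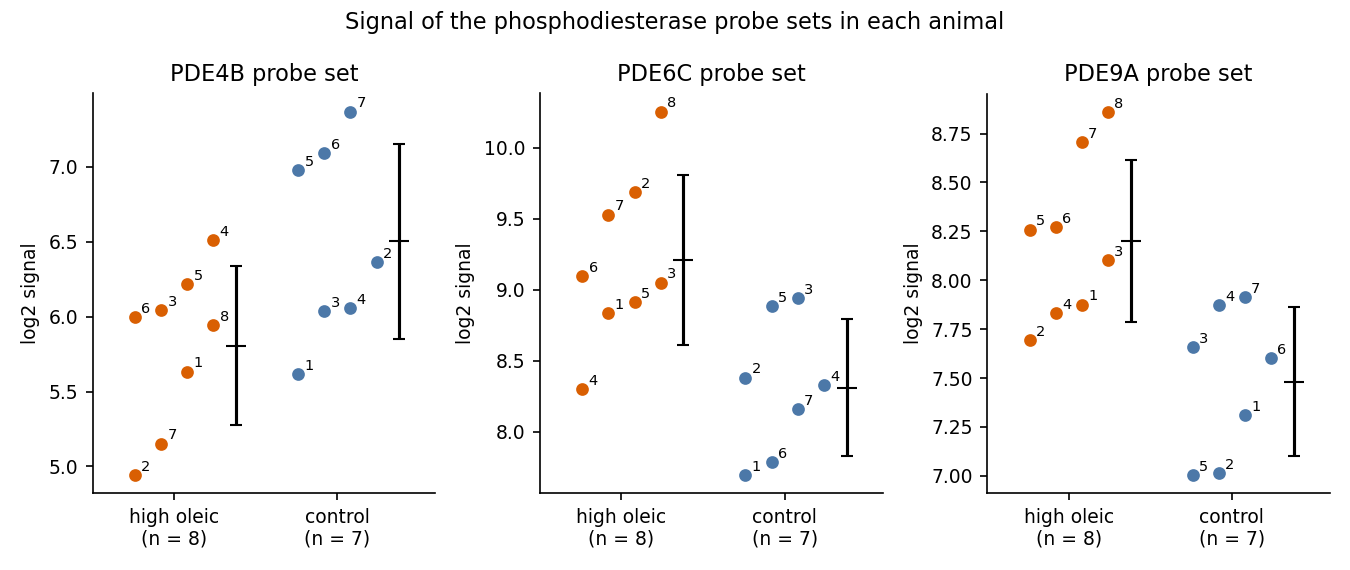
Log2 signal of the PDE4B, PDE6C and PDE9A probe sets (vertical axes) in 8 high-oleic and 7 control animals, 1 point per animal with its number, and the mean and SD of each diet in black. The groups overlap in every panel, PDE4B lies lower on the high-oleic diet (5.81 against 6.50), and PDE6C (9.21 against 8.31) and PDE9A (8.20 against 7.48) lie higher.

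The opposed directions were also described animal by animal, after each probe set was set to its own mean over the 15 animals. This centring keeps the diet difference by which the genes were chosen, so the counts by diet follow in part from that choice. PDE4B lay below its mean with both PDE6C and PDE9A above theirs in 5 of 8 high-oleic animals (numbers 1, 3, 6, 7 and 8) and in 0 of 7 control animals. The reverse held in 1 high-oleic animal, number 4, and in 2 control animals, numbers 2 and 6. The other 2 high-oleic and 5 control animals showed neither pattern. In control animal 1 all 3 signals were below their means, by -0.51 for PDE4B, -1.09 for PDE6C and -0.55 for PDE9A. High-oleic animal 5 had all 3 above them, by 0.09, 0.12 and 0.39.

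A balance was formed as PDE4B minus the average of PDE9A and the PDE6C probe set, whose identity is open, each relative to its mean. It ranged between -1.77 and 0.64 in high-oleic animals with a median of -0.51, and between -0.06 and 1.59 in control animals with a median of 0.86. Of the high-oleic animals 7 of 8 lay below every control animal, and the remaining animal, number 4 at 0.64, lay within the control range. The lowest balances were those of high-oleic animals 7, 2 and 8, at -1.77, -1.55 and -1.42, and the highest those of control animals 6, 7 and 5, at 1.59, 1.53 and 1.23. The balance combines the signals with the signs of the diet differences by which the genes were chosen. Its direction, and in part the separation of the diets in it, follow from that choice, so these counts are a description. The low end was reached in different ways, since high-oleic animal 8 had PDE4B only -0.19 from its mean but PDE6C at 1.46, whereas high-oleic animal 7 had PDE4B at -0.98 and PDE6C at 0.74.

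**Figure D2:**
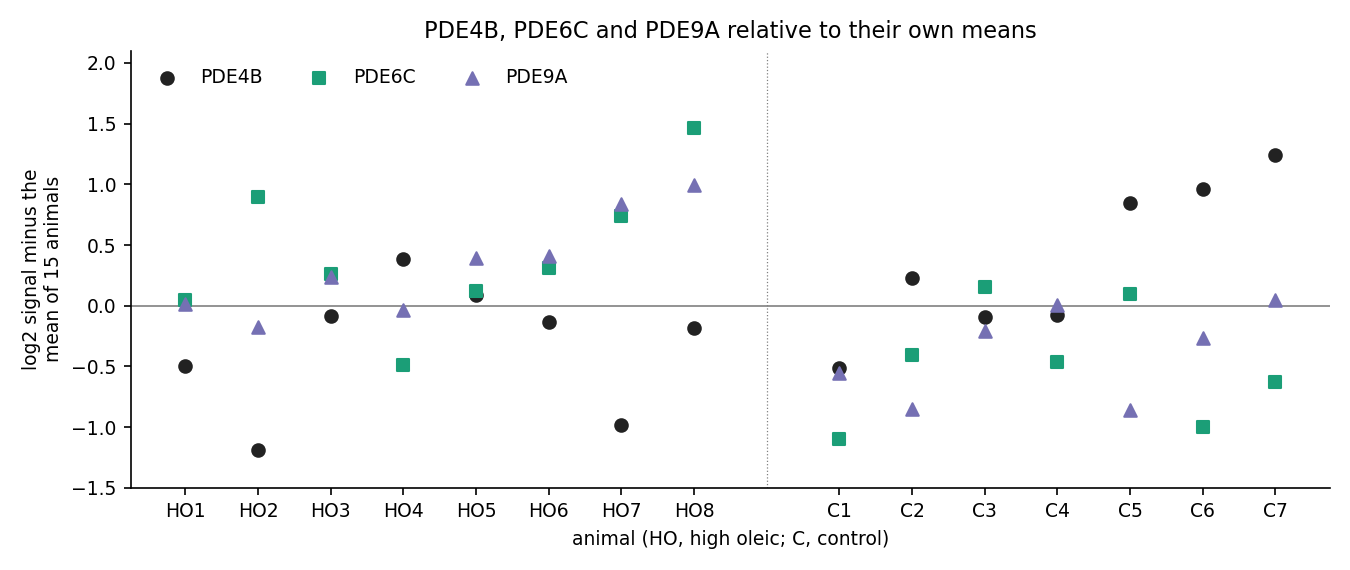
Log2 signal of PDE4B (circles), PDE6C (squares) and PDE9A (triangles) in each animal, relative to the mean of that probe set over the 15 animals, with high-oleic animals left of control animals. PDE4B stands under both others in 7 high-oleic animals, with number 4 the exception, while control animal 1 has all 3 below 0.

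How the 3 signals varied together inside each diet was compared by correlation of deviations from the diet means, over 3 pairs and 15 animals. The spread inside diets is not free of the selection, as the table holds only variable probe sets and the genes were chosen by a diet difference. PDE4B and PDE6C gave r = -0.277 (permutation p = 0.322, adjusted p = 0.483) and rho = -0.304 (permutation p = 0.286). PDE6C and PDE9A, the 2 probe sets that were higher on the high-oleic diet, gave r = 0.297 (permutation p = 0.308, adjusted p = 0.483) and rho = 0.214 (permutation p = 0.461). PDE4B and PDE9A gave r = 0.061 (permutation p = 0.833, adjusted p = 0.833) and rho = 0.032 (permutation p = 0.917). No pair passed the test.

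Within the high-oleic animals PDE6C and PDE9A correlated at r = 0.606 (n = 8, exact permutation p = 0.111), and within the control animals at r = -0.191 (n = 7, exact permutation p = 0.664). For PDE4B and PDE6C these values were -0.554 (n = 8, exact permutation p = 0.154) and 0.037 (n = 7, exact permutation p = 0.933), and for PDE4B and PDE9A 0.006 (n = 8, exact permutation p = 0.988) and 0.120 (n = 7, exact permutation p = 0.780). Adjusted over these 6 correlations, each p was 0.463 or higher, and the difference between diets was not tested. The relation of PDE6C with PDE9A leaned on high-oleic animal 8, which had the highest signal of both. Without that animal the within-diet r was 0.027, and without the 2 animals farthest in PDE6C, high-oleic animals 4 and 8, it was -0.106. That of PDE4B with PDE6C was -0.436 without high-oleic animal 2 and control animal 1, the 2 farthest in PDE4B, and between -0.509 and -0.126 when single animals were left out. That of PDE4B with PDE9A was -0.224 without the same 2 animals. With the spiked control signal, described below, in the fit, r was -0.551 for PDE4B and PDE6C, -0.109 for PDE6C and PDE9A and -0.228 for PDE4B and PDE9A, values for which no test was run.

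**Figure D3:**
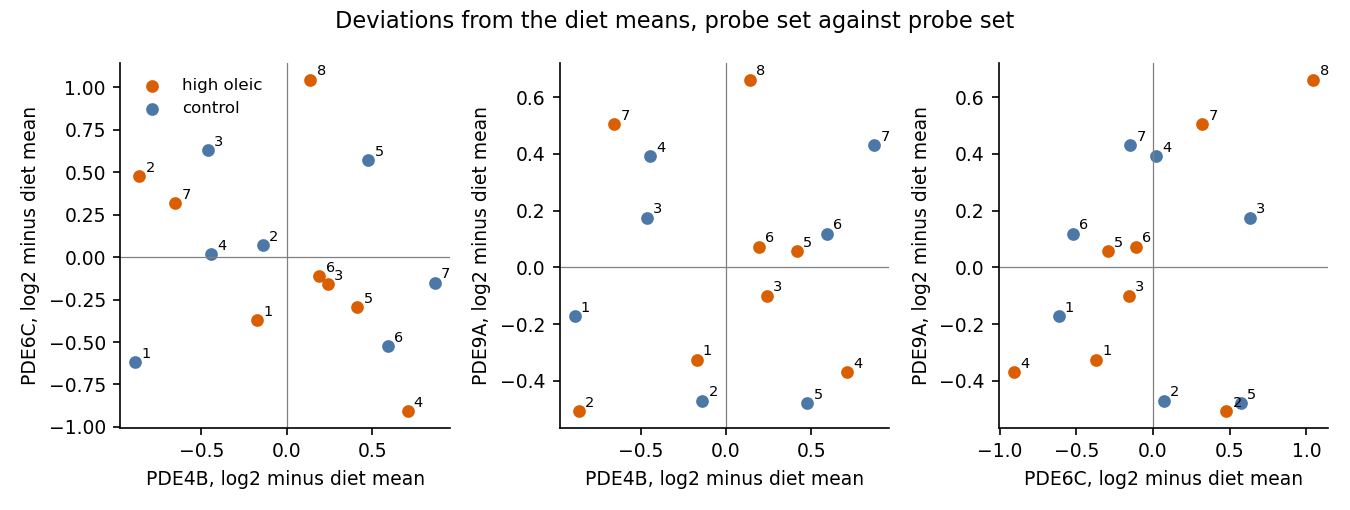
Deviation of each animal from its diet mean in log2 signal, for PDE6C against PDE4B, PDE9A against PDE4B and PDE9A against PDE6C, with animal numbers beside the points. High-oleic animal 8 stands alone at the upper right of the panel of PDE6C and PDE9A, where r over the 15 animals is 0.297.

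Live weight was compared with each probe set at fixed diet, in limma over all 3255 probe sets, as it differed among animals of one diet. The slope was 0.29 per 10 kg for PDE4B (SE 0.29, 95% interval -0.31 to 0.89), 0.20 for PDE6C (SE 0.28, 95% interval -0.38 to 0.78) and -0.05 for PDE9A (SE 0.24, 95% interval -0.55 to 0.45). None passed, with adjusted p of 0.919, 0.921 and 0.976 in limma, and 0 of 3255 probe sets passed in that fit, or 0%. At an unadjusted p under 0.05 there were 124, or 3.81%, and none of PDE4B, PDE6C and PDE9A was among them. The interval of PDE4B reaches a change of 0.89 per 10 kg.

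The slopes of PDE6C and PDE9A leaned on control animal 5, the heaviest at 133 kg, while that of PDE4B was 0.26 without this animal. Without it, PDE6C had a slope of -0.21 and PDE9A 0.57, both opposite in sign to the values above. Without high-oleic animal 7, the heaviest of its diet at 116 kg, the slope of PDE4B was 0.48 and that of PDE9A -0.17. By the permutation test of the within-diet correlation, r with live weight was 0.276 for PDE4B (permutation p = 0.420, rho = 0.396, permutation p = 0.163), 0.202 for PDE6C (permutation p = 0.475, rho = -0.007, permutation p = 0.985) and -0.070 for PDE9A (permutation p = 0.831, rho = 0.061, permutation p = 0.834). Without these 2 animals r was 0.538, -0.294 and 0.187 for PDE4B, PDE6C and PDE9A. The lowest adjusted p over the 39 relations, of which these are 3, was 0.247.

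Slopes were also compared between diets by the interaction of diet and live weight. The slope in high-oleic animals minus that in control animals was -0.54 for PDE4B (95% interval -2.03 to 0.96), -0.36 for PDE6C (95% interval -1.81 to 1.10) and 0.64 for PDE9A (95% interval -0.58 to 1.86), each with an adjusted p of 0.996 in limma. Over all probe sets 0, or 0%, passed and 162, or 4.98%, had an unadjusted p under 0.05. High-oleic animals spanned 104.5 to 116 kg and control animals 112 to 133 kg, and the intervals of all 3 hold 0 and values of either sign.

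Because the diets differed in weight, the diet difference of each probe set was also read with live weight in the fit. It was then -0.46 (SE 0.38) for PDE4B, against -0.70 with diet alone, 1.055 (SE 0.37) for PDE6C and 0.68 (SE 0.31) for PDE9A. In the 4 high-oleic and 6 control animals of 109.5 to 118 kg, the differences were -0.44, 0.73 and 0.66 for PDE4B, PDE6C and PDE9A. This window narrows the weight gap but does not match the diets in weight, since of its high-oleic animals only number 7, at 116 kg, was as heavy as any control animal. The signs were the same as in the full comparison, and PDE4B was the one whose size dropped by over 1.5 times. Diet and live weight overlap in this design, and their parts were not separated further.

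**Figure D4:**
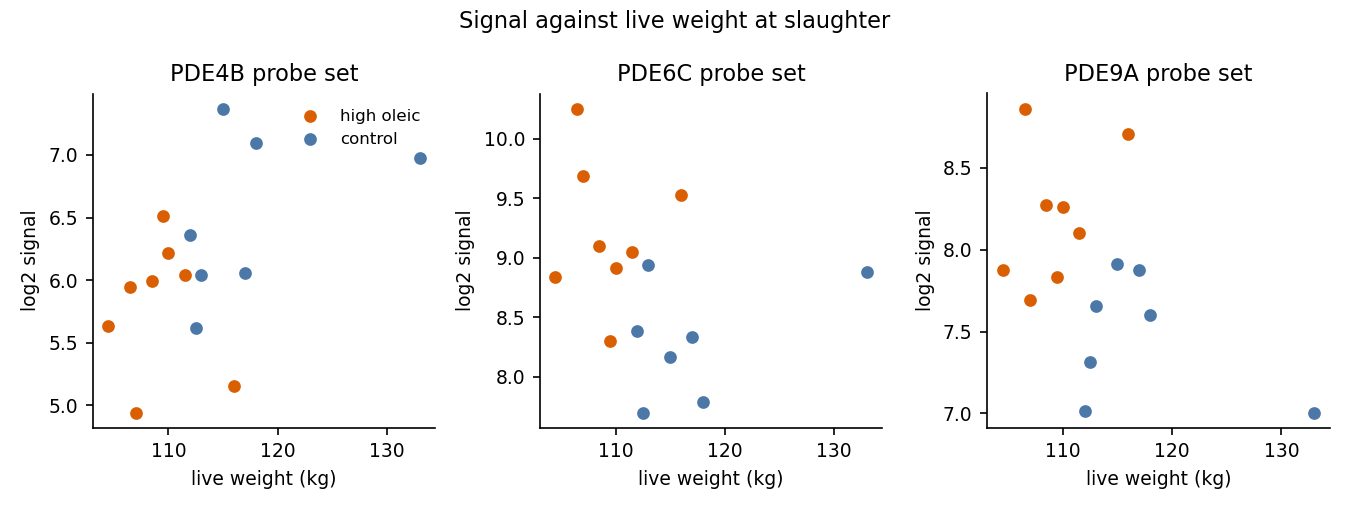
Log2 signal of each probe set (vertical axes) against live weight at slaughter in kg (horizontal axes), with high-oleic and control animals in different colours. Control animal 5 lies far to the right at 133 kg, and the slopes at fixed diet are 0.29, 0.20 and -0.05 per 10 kg for PDE4B, PDE6C and PDE9A.

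Other measures of the same animals were set against the 3 signals in 39 relations of 13 measures, again as deviations from the diet means. None passed after adjustment, the lowest adjusted p being 0.247. The largest r was that of PDE9A with the signal of Bacillus transcripts spiked into the RNA, at 0.690 (permutation p = 0.00653, adjusted p = 0.247, rho = 0.561, permutation p = 0.0420). It was 0.540 without the 2 animals farthest in spiked signal, high-oleic animals 1 and 8, and 0.840 within high-oleic animals (n = 8, exact permutation p = 0.00900) against 0.396 within control animals (n = 7, exact permutation p = 0.362). PDE6C had r = 0.528 with that signal (permutation p = 0.0653, rho = 0.457, permutation p = 0.10) and 0.222 without those 2 animals. PDE4B had r = 0.316 with it (permutation p = 0.240, rho = 0.271, permutation p = 0.305). Within diets this was 0.097 in high-oleic animals (n = 8, exact permutation p = 0.820) and 0.832 in control animals (n = 7, exact permutation p = 0.0294, adjusted p = 0.383). High-oleic animal 8 had the highest spiked signal, at 1.38 above the mean, and the highest PDE6C and PDE9A signals.

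With the spiked signal in the fit the diet difference was -0.80 for PDE4B, 0.73 for PDE6C and 0.56 for PDE9A. Without high-oleic animal 8 it was 0.75 for PDE6C and 0.62 for PDE9A. The leading principal component, which held 23.3% of expression variance, gave r = 0.610 with PDE6C (permutation p = 0.0253, rho = 0.411, permutation p = 0.142) and 0.239 without its 2 farthest animals. With PDE9A the component gave r = 0.555 (permutation p = 0.0394, adjusted p = 0.256, rho = 0.482, permutation p = 0.0809) and 0.364 without its 2 farthest animals. The part of the spiked signal or of this component in the diet difference was not tested beyond these fits.

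Among cell type markers, PDE6C varied with the 4 measured adipocyte markers at r = 0.613 (permutation p = 0.0224, adjusted p = 0.247, rho = 0.536, permutation p = 0.0511), and at 0.551 without the 2 farthest animals. Within diets r was 0.639 in high-oleic animals (n = 8, exact permutation p = 0.0888) and 0.566 in control animals (n = 7, exact permutation p = 0.195). The score of these markers was 0.18 in high-oleic and -0.20 in control animals on average, and their summed log2 level ranged between 11.75 and 12.98 in high-oleic and between 11.39 and 12.64 in control animals. PDE6C and the 9 measured smooth muscle and pericyte markers gave r = -0.435 over both diets (permutation p = 0.0745, rho = -0.471, permutation p = 0.0712). In control animals r was -0.901 (n = 7, exact permutation p = 0.00794, adjusted p = 0.176 over 78 such tests), and control animals 1 and 6 had the highest marker scores, at 1.30 and 1.13. Without those 2 animals r over both diets was -0.132. The score of this list was -0.19 in high-oleic and 0.22 in control animals on average, with summed log2 levels between 12.76 and 13.65 in high-oleic and between 13.11 and 14.65 in control animals. With the 6 macrophage markers PDE6C gave r = 0.55 (permutation p = 0.0571, rho = 0.275, permutation p = 0.344). Without the 2 farthest animals it was 0.361. Within diets it was 0.723 in high-oleic animals (n = 8, exact permutation p = 0.0403, adjusted p = 0.432) and -0.192 in control animals (n = 7, exact permutation p = 0.666). With the 9 skeletal muscle markers it was 0.477 (permutation p = 0.0766, rho = 0.561, permutation p = 0.0388). The part of these markers in the PDE6C difference was not tested. PDE9A varied with 3 of 7 erythroid markers, HBM, ALAS2 and AHSP, at r = 0.578 (permutation p = 0.0340, adjusted p = 0.256, rho = 0.511, permutation p = 0.0642), and at 0.377 without high-oleic animal 2 and control animal 5. Within diets r was 0.762 in high-oleic animals (n = 8, exact permutation p = 0.0295, adjusted p = 0.383) and 0.280 in control animals (n = 7, exact permutation p = 0.515). The erythroid score averaged 0.26 in high-oleic and -0.30 in control animals, the widest diet difference of the marker lists and in the direction of PDE9A, with summed log2 levels between 7.01 and 9.41 in high-oleic and between 6.71 and 8.40 in control animals. Its part in the PDE9A difference was not tested. PDE9A and the 4 measured endothelial markers gave r = 0.023 in high-oleic animals (n = 8, exact permutation p = 0.957) and 0.870 in control animals (n = 7, exact permutation p = 0.00536, adjusted p = 0.176), and the difference between diets was not tested.

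PDE4B is expressed by leukocytes, and its signal was set against their markers. Its r was -0.407 with 6 of 13 macrophage markers (permutation p = 0.112, rho = -0.382, permutation p = 0.143) and -0.103 without the 2 farthest animals. With 3 of 15 lymphocyte markers r was -0.482 (permutation p = 0.0829, rho = -0.389, permutation p = 0.177) and 0.019 without the 2 farthest. These 3 genes, CD2, CD3E and CD8A, had low signals, with mean log2 values between 2.67 and 4.33, which limits that score. Scores averaged 0.0046 in high-oleic and -0.0053 in control animals for macrophages, and 0.11 in high-oleic and -0.12 in control animals for lymphocytes. S100A9, the 1 measured of 8 neutrophil markers, averaged -0.06 in high-oleic and 0.07 in control animals relative to its mean. Summed macrophage levels ranged between 10.48 and 12.85 in high-oleic and between 11.48 and 12.05 in control animals, and summed lymphocyte levels between 4.85 and 7.25 in high-oleic and between 4.65 and 6.56 in control animals. Their part in the PDE4B difference was not tested.

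PDE4B was also set against 12 measured interferon response genes, with r = -0.582 (permutation p = 0.0233, adjusted p = 0.247, rho = -0.257, permutation p = 0.387). The relation rested on high-oleic animal 2 and control animal 1, whose interferon scores were 3.002 and 3.203 and whose PDE4B signals, 4.94 and 5.62, were the lowest of their diets. Without these 2 animals r was 0.084. The summed interferon levels ranged between 11.65 and 15.44 in high-oleic and between 11.49 and 15.65 in control animals.

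**Figure D5:**
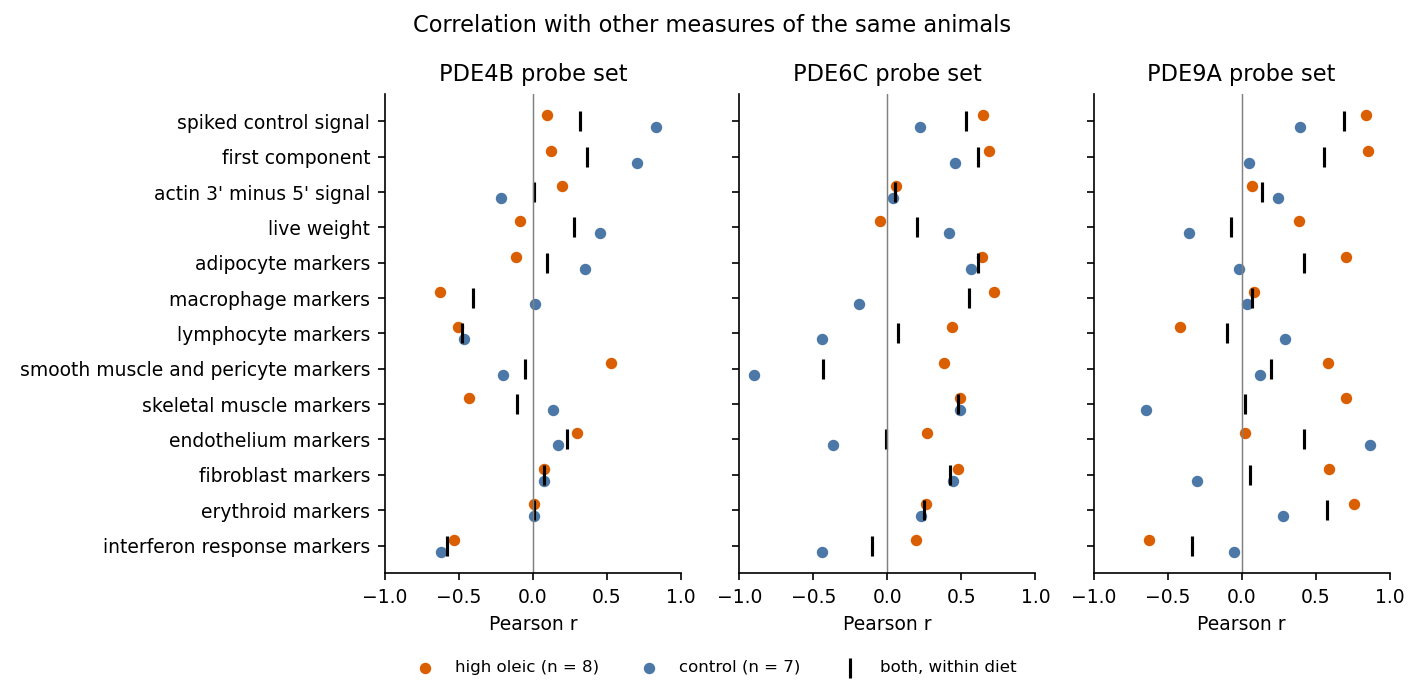
Pearson r of each probe set with 13 other measures of the same animals, with points for high-oleic animals (n = 8) and control animals (n = 7) and a bar for deviations from the diet means over both. PDE9A with the spiked control signal has the largest bar, at 0.690, and no relation passed after adjustment over 39.

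The genes whose signal was most like PDE4B, PDE9A or the PDE6C probe set were listed by within-diet r over the 15 animals, among 1259 other named genes, as a description. PDE4B was closest to ANGPT1, which encodes angiopoietin-1 of the vessel wall, at r = 0.814, with 0.745 in high-oleic and 0.924 in control animals. Next came FANCG of the Fanconi anaemia DNA repair pathway at 0.806, FGF12 at 0.784, the cell cycle transcription factor MYBL2 at 0.775 and the mitochondrial aspartate-glutamate carrier SLC25A12 at 0.736. The most opposed genes were HSPB11, a component of intraflagellar transport, at -0.801, the adaptor SKAP2 at -0.761 and the phospholipid flippase ATP10A at -0.732.

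The PDE6C probe set was closest to the lysosomal acid phosphatase ACP2 at 0.832, the folate receptor FOLR1 at 0.801, PAMR1 at 0.775, the amidase PGLYRP2 at 0.769 and the actin-binding drebrin DBN1 at 0.764. These 5 were lower without high-oleic animal 8, between 0.626 and 0.742. Its most opposed gene was PLN, which encodes phospholamban, an inhibitor of the calcium pump of the sarcoplasmic reticulum and a substrate of protein kinase A. PLN stood at -0.818 over both diets, at -0.923 in high-oleic and -0.904 in control animals, and at -0.813 without high-oleic animal 8. The transcription factor MECOM at -0.768 and the guanylate-binding protein GBP1 at -0.751 followed.

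PDE9A was closest to GNPDA1, the glucosamine-6-phosphate deaminase, at 0.905, with 0.894 in high-oleic and 0.919 in control animals and 0.878 without high-oleic animal 8. UBXN6 stood at 0.862, the kinase STK16 at 0.861, the phospholipase PLCD1 at 0.844 and C6H1orf174 at 0.828. The opposed genes were the chaperone-related HSPA13 at -0.823, TMBIM6 of the endoplasmic reticulum at -0.817 and IMPACT, a regulator of translation, at -0.807. No gene stood among the 5 closest of more than 1 phosphodiesterase. As the best of 1259, these r values are high in part by selection.

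Of the wider cyclic nucleotide system little was measured. The 3 probe sets above were the only ones annotated to any of 24 listed phosphodiesterases, with the identity of the PDE6C probe set open as described above. PDE3B, the insulin-regulated enzyme of adipocytes, was therefore not analysed here, and 0 of 26 listed genes of cyclic GMP signalling were measured. Of 132 listed genes of cyclic AMP and cyclic GMP signalling, adenylyl cyclase-coupled receptors, lipolysis and targets of the cyclic AMP response factor CREB, 11 were measured. In limma 0 of these 11 passed in either direction for diet (adjusted p = 0.999 for each, 0% called over all probe sets) and 0 for live weight. The members of each list that were measured do not stand for the whole pathway.

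Of 42 genes of cyclic AMP signalling 3 were measured, with a median diet difference of -0.07 against -0.03 over all probe sets. PKIA, an inhibitor of protein kinase A, had 8.04 ± 0.40 in high-oleic and 8.49 ± 0.42 in control animals (SD, n = 8 and 7), a difference of -0.45 (SE 0.25). PKIG, another inhibitor of this kinase, differed by -0.07 and by -0.19 on its second probe set, and the anchoring protein AKAP13 by 0.05. LHCGR, the luteinizing hormone receptor and the 1 measured of 31 receptors, was dim at 2.43 ± 0.34 and 2.83 ± 0.70, high oleic against control, with -0.39 on one probe set and -0.07 on the other.

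Of 16 genes of lipolysis and the insulin signal 2 were measured. PNPLA2, the triglyceride lipase that starts lipolysis, differed by 0.52 (SE 0.25), and its coactivator ABHD5 by 0.21 (SE 0.23). Of 19 CREB targets 5 were measured, with positive differences for 4 and a median of 0.19. PCK1, the phosphoenolpyruvate carboxykinase that supplies glycerol in fat, had 7.13 ± 1.21 in high-oleic and 5.67 ± 1.76 in control animals, a difference of 1.47 (SE 0.64). The nuclear receptors NR4A2 and NR4A3 differed by 0.22 and 0.19, the G protein regulator RGS2 by -0.14 and the cytokine IL6 by 0.14. On live weight all 5 had negative slopes at fixed diet, between -0.77 (SE 0.60) for PCK1 and -0.16 (SE 0.68) for NR4A3. Their median was -0.35 per 10 kg against 0.04 over all probe sets, 45.6% of which were negative. None of the 5 passed, the lowest adjusted p being 0.916 in limma. Slopes were positive for all 3 genes of cyclic AMP signalling, with a median of 0.12, and for LHCGR and PNPLA2, and negative for ABHD5. How these slopes change without control animal 5, the heaviest, was not tested.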

How the data were processed

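The authors deposited 1 table of log2 signals for 3272 probe sets. Per the submitters' processing notes, the tools were GCOS and GCRMA, with no version, setting or role stated there. The log2 scale was read from the values, which lay between 1.49 and 14.36 and were not centred per probe set. After 17 control probe sets were left out, 3255 were tested. Of these, 1455 had 1 symbol, 27 several and 1773 none in the platform annotation, and 0 columns of unmapped samples were present.

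Fits used limma 3.58.1 in R 4.3.3 (lmFit, eBayes) across all 3255 probe sets. Tests were two-sided, and p-values were adjusted by the Benjamini-Hochberg method and called under 0.05. Correlations used 100000 permutations drawn within diets (scipy 1.17.1 and numpy 2.4.6 in Python 3.11.15), or all orders within 1 diet. Pathway and marker genes took the probe set with the highest mean. A list score is the mean over its genes of log2 signal minus the gene's mean over the 15 arrays. Figures were drawn with matplotlib 3.10.9. The fit was tested on simulated data with effects larger than those of the 3 members, which does not show its power at their sizes. The named genes were the 3 members, measured genes of the pathway lists, and for each member the 5 highest and 3 lowest within-diet r. Members and lists were chosen with earlier results of these data known. The alternatives were other scalings, a floor, a filter on dim probe sets, array weights, other variance models, a weight window, live weight as a covariate, the animal number as a block and each animal left out. The spiked signal as a covariate of the fits, and animals left out of the interaction, were added after the data were seen.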

Additional observations from a re-analysis of the deposited data

Results flagged for a closer look

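In 56 checks within diets, 8 values stood far from the rest of their diet, where chance gives about 1 in 20, or 2.80 if the checks were independent. None of these fell on PDE4B, PDE6C, PDE9A or their balance. Control animal 5 weighed 133 kg, and the median of the other controls was 114. High-oleic animal 8 had a first component of 48.6, where the other high-oleic animals had a median of -12.67. The interferon score was 3.002 in high-oleic animal 2 with a median of -0.27 in the rest, and 3.203 in control animal 1 against -0.89. The skeletal muscle score was 2.983 in high-oleic animal 7 against -0.39. In the wider lists, PKIG was 7.988 in control animal 1 against 8.71, RGS2 7.928 in control animal 3 against 9.71 and LHCGR 3.26 in high-oleic animal 5 against 2.31.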

How the results depend on the processing

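The signs of all 3 diet differences held in each of 23 alternatives. As the genes were chosen by this difference, that is a description and no test. All signals of the 3 lay above the floor, so that setting could not change the differences. The replicate block gave the same differences as leaving out high-oleic animal 8. Without single animals the diet differences lay between -0.84 and -0.55 for PDE4B, 0.75 and 1.03 for PDE6C and 0.62 and 0.79 for PDE9A. In the other settings they lay between -0.80 and -0.44, 0.69 and 1.055 and 0.56 and 0.75. Slopes on live weight turned more easily, and the cause was not tested. In animals of 109.5 to 118 kg the slope was -0.16 for PDE4B and 0.996 for PDE9A, with array weights 0.13 for PDE9A, and with diet left out of the fit -0.29 for PDE6C. Without single animals slopes lay between 0.18 and 0.48 for PDE4B, -0.21 and 0.29 for PDE6C and -0.17 and 0.57 for PDE9A. Their differences between diets lay between -1.49 and 0.76, -1.23 and 0.46 and -0.45 and 0.95. No alternative brought a slope of these genes past the threshold, the lowest adjusted p being 0.668. The r of PDE4B with PDE9A was -0.045 after median centring and -0.228 with the spiked signal in the fit, and between -0.123 and 0.210 without single animals. With the spiked signal in the fit that of PDE6C with PDE9A was -0.109 and that of PDE4B with PDE6C -0.551.

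With the animal number as a replicate block the slope of PDE4B was -0.25. The r of PDE4B with PDE9A was then -0.587 and that of PDE4B with PDE6C -0.684. The diet differences were -0.72, 0.75 and 0.62 for PDE4B, PDE6C and PDE9A, the same as without high-oleic animal 8. That animal has no control of its number, so the block uses only differences inside the 7 same-numbered pairs. Its r values therefore rest on fewer animals and are not directly comparable with those over all animals. The labels do not say that a number marks a pair. Of same-numbered pairs 4 of 7 correlated above 0.1, with a range between -0.161 and 0.296, and 5 of 14 animals matched best with their own number, so a shared factor behind some numbers cannot be told from these data. The block called 0 probe sets for diet and 0 for live weight.

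Over all probe sets, limma called 1 for diet with the spiked signal in the fit, 128 at an unadjusted p under 0.05, and for live weight 124 at an unadjusted p and between 0 and 5 without single animals, the 5 when control animal 2 was omitted and 2 when high-oleic animal 7 was. The lower live weight on the high-oleic diet lay between -9 and -5.40 kg without single animals.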
